A study of Mus musculus with 40 samples.

Results

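Foxc1, Foxc2, Twist1, Prrx1, Lmx1b and Tfap2b are transcription factor genes of the periocular mesenchyme, the loose connective tissue around the developing eye. Their probes were taken by the gene symbol in the array's platform annotation, with no use of the measured values. This gave 12 probes for the 6 genes, of 25697 probes and 16593 named genes on the array. Prrx1 and Tfap2b had 4 probes each, and the other genes had 1 probe each. Total RNA of mouse embryos was hybridised to 40 single-colour Illumina bead arrays, of which 36 were used. All embryos were on the C3HeB/FeJ background. Aey69 mutants were homozygous for a mutation induced with the mutagen ENU that exchanges an amino acid in Hist2h3c1, a histone H3 gene. Controls were wild-type. The tissue was the whole embryo at E9.5 (embryonic day 9.5), the head at E10.5 and E11.5, the eye region at E12.5 and the eye at E13.5, so that stage and tissue changed together except between E10.5 and E11.5. There were 4 mutant and 3 control samples at E9.5 and E12.5, 4 of each at E10.5 and E11.5, and 3 of each at E13.5. Of the 4 arrays left out, 2 controls had been set aside in the study for array quality, and 1 mutant and 1 control for unusual marker levels. For the 3 E13.5 controls used, another label names E12.5, and the title and age were followed. The labels do not say whether samples were separate embryos or litters, so p-values measure the spread between these samples.

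The periocular mesenchyme arises from the cranial neural crest and from mesoderm, and it migrates between the surface ectoderm and the optic cup. It gives rise to the corneal stroma and endothelium, the iris stroma, the trabecular meshwork, the sclera, the eyelid and the connective tissue of the eye muscles. Foxc1 and Foxc2 are forkhead factors of this mesenchyme, and loss or altered dose of FOXC1 in humans causes malformations of the anterior eye segment. Twist1 is a basic helix-loop-helix factor of head mesenchyme, and Prrx1 and Lmx1b are homeodomain factors of mesenchyme, the latter also of limb and kidney. Tfap2b belongs to the AP-2 factors of neural crest and its derivatives, and AP-2 factors also act in surface ectoderm and in retinal and other neurons. In bulk RNA, fewer cells of a type and less RNA per cell cannot be told apart.

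Values are log2 of the normalised probe signal, given as mean ± SD with the number of samples n. A probe was taken as detected in a comparison when its detection p-value, which measures the signal against negative-control beads, was below 0.05 in most samples of a group (2 or more of 3, or 3 or more of 4) for mutants or controls. It was called different when limma's p-value, adjusted by Benjamini-Hochberg over all probes of the array, was also under 10%. Where a gene had several probes, the probe with the highest mean stood for the gene in counts of genes. Probe signals depend on the probe, so levels were compared between samples and not between genes. Between 44.62% and 54.92% of the probes were detected per array. The tissue labels were checked on Cryaa, the lens crystallin gene, which reached 13.55 ± 0.28 (SD, n = 3) in E13.5 control eyes and 5.01 ± 0.14 (SD, n = 3) in mutant eyes. The pigment gene Tyr was detected in all 6 E13.5 eyes. So was the optic cup gene Rax, at 7.12 ± 0.27 in controls and 6.21 ± 0.26 in mutants (SD, n = 3 each). Another optic cup gene, Six6, was detected in 0 of 3 control and 1 of 3 mutant eyes.

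Control sample 2 of E12.5 stood apart from the other samples of its group. Its percentage of detected probes was 47.57, against 53.98 and 54.38 for the other controls. Its mean Pearson correlation with its own group was 0.891, against 0.944 and 0.937. Its summed signal of 7 erythroid genes was 6950, against 73351 and 63304, and its summed signal of 12 lens fiber genes was 7108, against 3456 and 4525. In the E12.5 mutants the erythroid sum was 7542 to 19123 and the lens fiber sum 407 to 431. The erythroid sum of control sample 2 was thus near those of the mutants, and its lens fiber sum was not. The E12.5 results are therefore given with and without this sample. The fit without it called 17.2% of detected probes lower in mutants and 17% higher. In that fit, 6 of 6 detected erythroid genes were called lower in mutants (list median −2.28). The part of erythroid signal in the other calls of that fit was not tested.

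The 6 genes differed in how reliably they were measured. The probes of Foxc1 (chr13:31806646-31810635 in GRCm38.p6), Foxc2 (chr8:121116171-121118895) and Twist1 (chr12:33957671-33959831) were detected on all 36 arrays. For Prrx1 (chr1:163245119-163315145), both probes of transcript NM_011127 were detected on 36 arrays, and those of transcript NM_175686 on 35 and 10. For Tfap2b (chr1:19208908-19238845), both probes of NM_009334 and the brighter of NM_001025305 were detected on 36 arrays, and the second probe of NM_001025305 on 5. The Lmx1b probe (chr2:33560965-33641208) was detected on 3 arrays and in 0 of the 10 groups, with values between 4.34 and 5.33. Its level was therefore not measured, and 5 of the 6 genes remained in the comparisons.

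**Figure D1:**
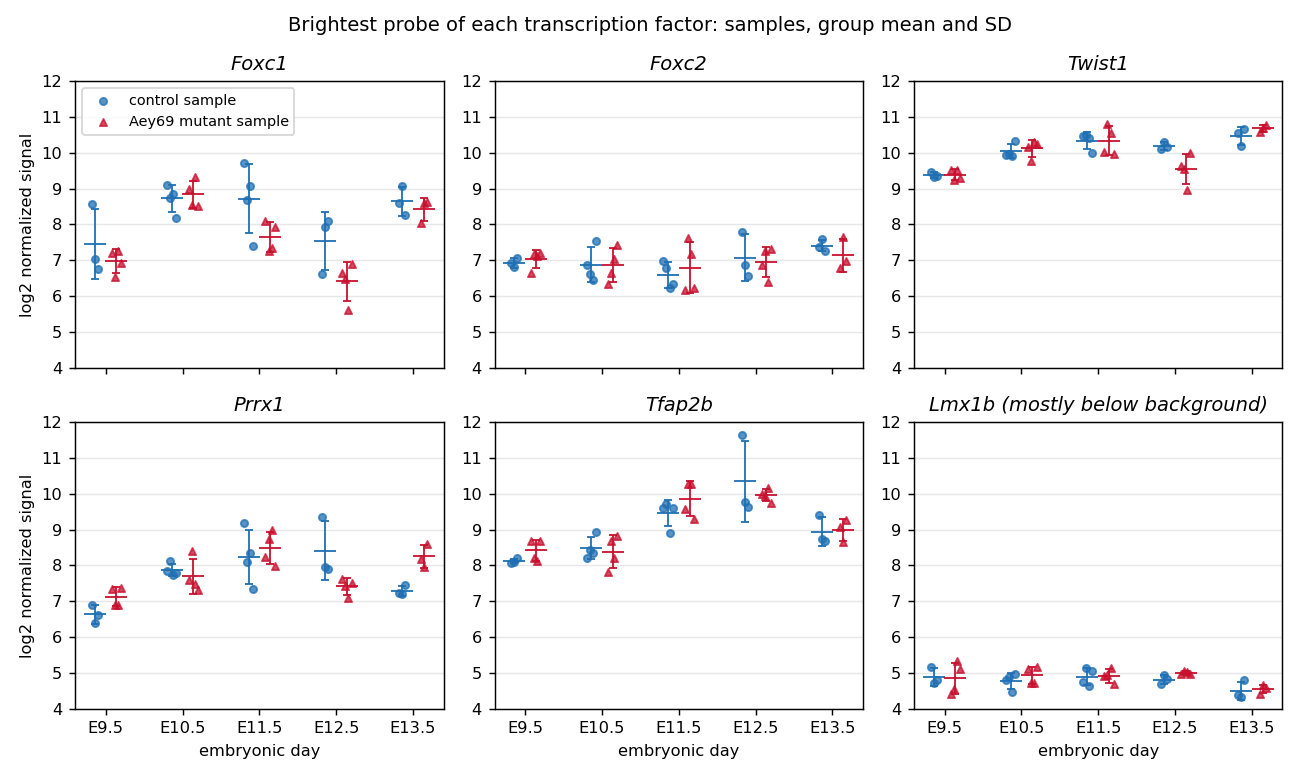
Log2 normalised signal of the brightest probe of each gene (vertical axis) at each embryonic day (horizontal axis), with circles for control samples, triangles for Aey69 mutant samples, and lines for the group mean and SD. Foxc1 and Tfap2b span wide ranges over the stages, Foxc2 stays between 6.16 and 7.8, and Lmx1b stays at or below 5.33.

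Promoter sequences are shown for Prrx1, the only gene of the group called between the genotypes, and for Tfap2b, whose probes of different transcripts followed different courses. Each is the 250 bases before the start site that RefSeq's table for GRCm38.p6 gives, 5′ to 3′ on the gene's strand, and both start sites lie inside the annotated gene span. Capitals mark the homeodomain core TAAT on either strand and the E-box CANNTG, the class of site read by helix-loop-helix factors such as Twist1.
Prrx1 (chr1:163313651-163313900, minus strand): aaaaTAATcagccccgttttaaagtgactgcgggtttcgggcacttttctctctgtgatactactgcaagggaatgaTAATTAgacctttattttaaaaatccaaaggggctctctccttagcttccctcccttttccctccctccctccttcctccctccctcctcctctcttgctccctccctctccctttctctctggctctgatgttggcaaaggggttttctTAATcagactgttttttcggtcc
Tfap2b (chr1:19211804-19212053, plus strand): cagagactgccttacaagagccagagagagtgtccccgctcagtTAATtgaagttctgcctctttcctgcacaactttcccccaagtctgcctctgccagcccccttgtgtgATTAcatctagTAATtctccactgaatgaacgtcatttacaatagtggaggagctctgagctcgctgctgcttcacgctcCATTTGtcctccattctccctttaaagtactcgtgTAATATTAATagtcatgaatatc

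The Prrx1 stretch held 4 TAAT cores, 246, 173, 171 and 23 bases before the start, with those at 173 and 171 overlapping, and no E-box. The Tfap2b stretch held 6 TAAT cores and 1 E-box, 58 bases before the start. Of 32851 promoter stretches of this length in the table, 54.9% held at least 1 TAAT and 66.2% at least 1 CANNTG, so both motifs are common. The Foxc1 and Twist1 stretches held neither motif, and each had 1 CCAAT, which occurred in 33.8% of all stretches. Foxc1 also had 1 AP-2 motif GCCNNNGGC, found in 13.7%, and Twist1 1 TATAAA, found in 12.4%. The forkhead motif GTAAACA, present in 3.17%, had no match in the stretches of the 5 genes in the table, which did not list Foxc2. GC content was 70.8% for Foxc1, 62.4% for Twist1, 65.2% for Lmx1b, 47.6% for Prrx1 and 46.4% for Tfap2b, against a median of 52.4% over all stretches.

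Prrx1 was higher in the mutant than in the control eye at E13.5, whereas in the E12.5 eye region it was lower in mutants by a difference that was not called. At E13.5 the NM_011127 probe ILMN_2614463 measured 7.94, 7.99 and 8.71 in the mutants and 6.71, 6.89 and 6.92 in the controls. All 3 mutant samples lay above all 3 controls. The mean was 8.21 ± 0.43 (SD, n = 3) against 6.84 ± 0.11 (SD, n = 3), a log2 difference of 1.37 ± 0.21 (SE, limma adjusted p = 0.045), or 2.59-fold. The brighter NM_011127 probe, ILMN_2678094, measured 8.19, 7.97 and 8.61 in the mutants and 7.22, 7.19 and 7.46 in the controls. The groups again did not overlap, and the log2 difference was 0.96 ± 0.18 (SE, limma adjusted p = 0.084), or 1.95-fold. The NM_175686 probe ILMN_3057018 was at 6.57, 6.63 and 6.8 in the mutants against 6.25, 5.95 and 6.23, which also did not overlap, but its difference of 0.52 ± 0.13 (SE, limma adjusted p = 0.14) was not called. With 3 samples against 3 an exact 2-sided permutation test cannot go below p = 0.1, the value it gave for each of the 3 probes. At this stage 0.465% of detected probes were called higher in the mutants and 1.15% lower, and 13.9% had mutant values above all control values, so that the absence of overlap alone is common.

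The E13.5 calls depended on the samples and on the model. Leaving out each of the 6 samples in turn gave differences of 1.12 to 1.51 for ILMN_2614463 with limma adjusted p from 0.025 to 0.17, and the call was lost without mutant sample 2 (0.13), mutant sample 4 (0.12) or control sample 2 (0.17). For ILMN_2678094 the differences were 0.79 to 1.11 with adjusted p from 0.055 to 0.27, and the call was kept only without control sample 4. With both excluded E13.5 arrays included, the differences were 1.45 and 0.44, each with an adjusted p of 0.87. The mutant among them measured 6.17 and 6.9 for the 2 probes, below all kept controls. The control among them measured 4.5 (not detected) and 8.04. With the replicate number of the titles as a block, fitted on the authors' processed values, neither probe was called (limma adjusted p = 0.11 for ILMN_2614463 and 0.14 for ILMN_2678094). ILMN_2678094 also lost its call under scaling to the array median (adjusted p = 0.1) and in 1 model of 10 groups (adjusted p = 0.47), where ILMN_2614463 kept it (adjusted p = 0.035 and 0.082). Of the 15 other settings tried, 10 called ILMN_2614463 and 6 called ILMN_2678094.

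At E12.5 the order of the genotypes was the opposite. ILMN_2614463 measured 6.9, 6.92, 6.35 and 7.06 in the mutants, and 8.58, 7.68 and 7.56 in the controls. ILMN_2678094 measured 7.62, 7.43, 7.08 and 7.52 in the mutants, and 9.36, 7.95 and 7.91 in the controls. Mutants lay below all controls for both probes, with control sample 2 highest. The log2 differences were −1.13 ± 0.28 (SE) and −0.99 ± 0.34 (SE) with limma adjusted p of 0.27 and 0.42, so neither was called. An exact 2-sided permutation test gave p = 0.029 for each probe, the smallest that 4 samples against 3 allow. Without control sample 2 the differences were −0.81 ± 0.2 (SE, limma adjusted p = 0.022) and −0.51 ± 0.17 (SE, adjusted p = 0.073). That fit called 17.2% of detected probes lower in mutants and 17% higher. For the NM_175686 probe ILMN_3057018 the highest mutant was at 6.43 and the controls at 8.25, 6.47 and 6.44, so the groups nearly met. Without control sample 2 its difference was −0.14 ± 0.15 (SE, limma adjusted p = 0.6) and was not called.

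The change of the genotype difference from E12.5 to E13.5 was tested in a model of all 10 groups. It was 2.5 ± 0.48 on the log2 scale (SE, limma adjusted p = 0.0034) for ILMN_2614463 and 1.96 ± 0.48 (SE, adjusted p = 0.035) for ILMN_2678094. For ILMN_3057018 the change was not called. In this contrast 1.32% of detected probes were called in the direction of Prrx1 and 1.28% in the opposite direction, and Prrx1 was called alone among the 5 measured genes. Leaving out each of the 13 samples of both stages gave changes of 2.18 to 2.69 for ILMN_2614463, all called, and of 1.48 to 2.21 for ILMN_2678094, with the call lost only without mutant sample 5 of E13.5 (adjusted p = 0.13). From E12.5 to E13.5 the tissue also changed from eye region to eye, and for Prrx1 a change in what was dissected cannot be told apart from a change with age.

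**Figure D2:**
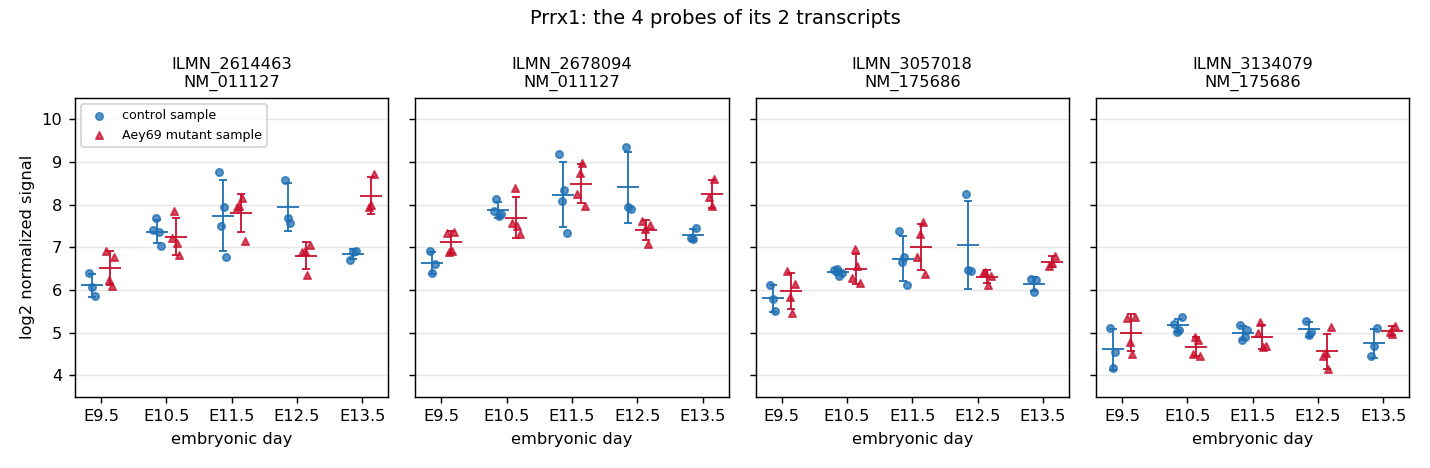
Log2 normalised signal of the 4 Prrx1 probes (vertical axis) at each embryonic day (horizontal axis), titled with probe and transcript, with circles for controls, triangles for mutants, and lines for the group mean and SD. In the 3 probes to the left, mutants lie below controls at E12.5 and above them at E13.5, and ILMN_3134079 stays near background. For ILMN_3057018 the highest E12.5 mutant is at 6.43 and the lowest E12.5 control at 6.44.

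Prrx1 at the earlier stages showed no called difference between the genotypes. At E9.5 the mutant mean of ILMN_2678094 was 7.13 ± 0.26 (SD, n = 4) and the control mean 6.64 ± 0.26 (SD, n = 3). The E10.5 heads had 7.7 ± 0.48 and 7.88 ± 0.17 in the same order, and the E11.5 heads 8.49 ± 0.46 and 8.24 ± 0.76 (SD, n = 4 each). In controls the level was thus lowest in the E9.5 embryo and higher in the heads. In the E12.5 eye region it was at 8.41 ± 0.83 (SD, n = 3), or at a mean of 7.93 without control sample 2, below the E11.5 heads. In the E13.5 eye it was at 7.29 ± 0.15 (SD, n = 3). The mutant course differed at the last stages, with 7.41 ± 0.23 (SD, n = 4) in the eye region and 8.26 ± 0.33 (SD, n = 3) in the eye. The probes of Prrx1 followed each other, with a Pearson correlation over the 36 samples of 0.96 between ILMN_2614463 and ILMN_2678094 and of 0.93 between ILMN_2678094 and ILMN_3057018. After subtraction of the group means these were 0.92 and 0.91.

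Twist1 was 1.57-fold lower in the mutant than in the control eye region at E12.5, a difference that was not called. The mutants measured 9.64, 9.55, 8.97 and 10 and the controls 10.1, 10.3 and 10.17. The groups did not overlap. The log2 difference was −0.65 ± 0.23 (SE, limma adjusted p = 0.43), and an exact 2-sided permutation test gave p = 0.057. Without control sample 2 the difference was −0.7 with a limma adjusted p of 0.079, in a fit that called 17.2% of detected probes lower. At the other stages the genotypes overlapped, with mutant and control means of 9.39 and 9.38 in the E9.5 embryo, 10.12 and 10.04 in the E10.5 head, 10.34 and 10.34 in the E11.5 head, and 10.68 and 10.47 in the E13.5 eye. The change of the genotype difference from E12.5 to E13.5 was 0.87 ± 0.29 (SE, limma adjusted p = 0.18) and was not called.

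Foxc1 was lower in mutants than in controls in the E11.5 head and the E12.5 eye region, by more than 2-fold in both, and neither difference was called. At E11.5 the mutants measured 8.1, 7.27, 7.34 and 7.92 and the controls 9.71, 8.68, 9.06 and 7.41. Control sample 5, at 7.41, lay among the mutants, and the other controls lay above them. The log2 difference was −1.05 ± 0.41 (SE, limma adjusted p = 0.66, exact permutation p = 0.086). At E12.5 the mutants measured 6.64, 6.48, 5.62 and 6.89 and the controls 6.61, 7.92 and 8.09. Here control sample 2, at 6.61, lay among the mutants. The difference was −1.13 ± 0.4 (SE, limma adjusted p = 0.43, exact permutation p = 0.11), and without control sample 2 it was −1.59 ± 0.29 (SE, adjusted p = 0.0067) and was called. The fit without that sample called 17.2% of detected probes lower in mutants and 17% higher. In E10.5 heads Foxc1 was at 8.84 ± 0.38 in mutants against 8.72 ± 0.39 (SD, n = 4 each), and in E13.5 eyes at 8.42 ± 0.32 against 8.64 ± 0.41 (SD, n = 3 each), with overlap at both stages. At E9.5 control sample 2 was at 8.58, and the other 6 samples lay between 6.53 and 7.26.

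The deviation of Foxc1 from its group mean moved with the percentage of probes detected on the array, with a Pearson correlation of 0.54 over the 36 samples (arrays with fewer detected probes had lower Foxc1). At E11.5 the mutant arrays detected 51.76%, 47.45%, 49.01% and 51.02% of the probes in the order of the Foxc1 values above, and the control arrays 52.53%, 51.9%, 53.54% and 51.77%. The mutants with the lowest percentages, samples 3 and 4, also had the lowest Foxc1. The part of array detection in the Foxc1 difference was not tested. The corresponding correlation was −0.62 for Foxc2, −0.22 for Twist1, and between −0.32 and 0.09 for the Prrx1 probes. These correlations are descriptions over samples that share groups of 3 or 4.

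**Figure D3:**
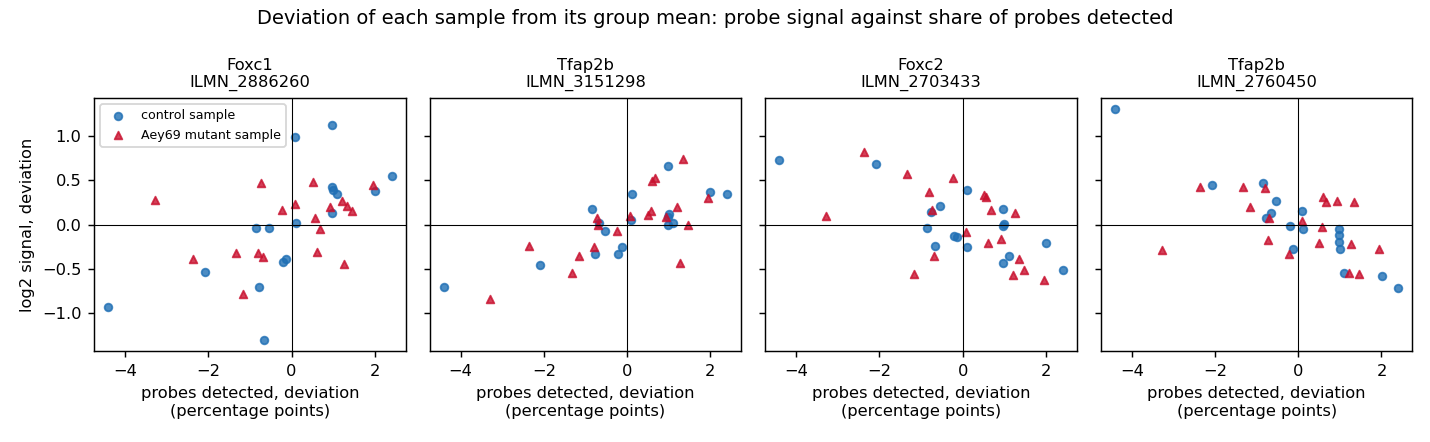
Deviation of each of the 36 samples from its group mean, for the log2 signal of 4 probes (vertical axis) against the percentage of probes detected on the array (horizontal axis, percentage points), with circles for controls and triangles for mutants. Foxc1 (r = 0.54) and Tfap2b ILMN_3151298 (r = 0.73) rise with detection, and Foxc2 (r = −0.62) and Tfap2b ILMN_2760450 (r = −0.69) fall.

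Foxc2 varied least over the groups, with an SD of the 10 group means of 0.22, against 0.85 for Foxc1, which belongs to the same forkhead subfamily. Its group means lay between 6.58 ± 0.35 (SD, n = 4) in E11.5 control heads and 7.41 ± 0.16 (SD, n = 3) in E13.5 control eyes. The genotypes overlapped at all 5 stages. The differences were 0.1, −0.01, 0.2, −0.11 and −0.28 from E9.5 to E13.5 and none was called (limma adjusted p = 0.59 at E13.5).

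Tfap2b probes assigned to different transcripts followed different courses. Both NM_009334 probes were highest in the E12.5 eye region and lower in the E13.5 eye, whereas the NM_001025305 probe ILMN_3151298 was highest in the eye. For ILMN_2760450 (NM_009334) the control means were 8.13, 8.48, 9.46, 10.35 and 8.95 from E9.5 to E13.5 and the mutant means 8.42, 8.38, 9.86, 9.96 and 9. For ILMN_3151298 they were 7.3, 8.26, 9.43, 9.49 and 9.99 in controls and 7.03, 8.33, 9.06, 8.76 and 9.84 in mutants. The difference of ILMN_3151298 from ILMN_2760450 within a sample moved from −0.86 ± 1.74 (SD, n = 3) in E12.5 controls to 1.05 ± 0.29 (SD, n = 3) in E13.5 controls. Control sample 2 of E12.5 was at −2.86 and the other E12.5 controls at 0.08 and 0.2, with a mean of 0.14, so that most of the E12.5 control value came from that sample. In mutants it moved from −1.2 ± 0.39 (SD, n = 4) to 0.84 ± 0.23 (SD, n = 3). Only the course of this difference can be read, since the probes differ in their response. The other NM_001025305 probe was detected on 5 of 36 arrays, so the course given for NM_001025305 rests on ILMN_3151298 alone. Whether each probe reads only its assigned transcript was not tested.

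No Tfap2b probe was called between the genotypes with all kept samples. At E12.5, ILMN_2760450 measured 10, 9.94, 10.16 and 9.75 in the mutants and 11.65, 9.76 and 9.63 in the controls. Control sample 2 was higher than all others by more than 1 log2 unit, and the remaining values overlapped. ILMN_3151298 measured 8.86, 8.92, 8.41 and 8.87 in the mutants and 8.78, 9.85 and 9.83 in the controls. The same control sample lay among the mutants here, and the other controls lay above them. The difference was −0.72 ± 0.28 (SE, limma adjusted p = 0.47, exact permutation p = 0.11), and without control sample 2 it was −1.07 ± 0.17 (SE, adjusted p = 0.0049) and was called, while the NM_009334 probe ILMN_1223731 was called in the other direction (0.51, adjusted p = 0.098). Both calls stand beside 17.2% of detected probes called lower and 17% called higher in that fit. At E13.5 the differences were 0.05 for ILMN_2760450 and −0.16 for ILMN_3151298, with limma adjusted p of 0.94 and 0.63.

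Tfap2b probes assigned to different transcripts also moved in opposite directions with array detection. The deviations of ILMN_1223731 and ILMN_2760450 had correlations of −0.78 and −0.69 with the percentage of detected probes, and those of ILMN_3151298 and ILMN_3072487 of 0.73 and 0.75 (36 samples). Both NM_009334 probes correlated at 0.98 over the samples, while ILMN_2760450 and ILMN_3151298 correlated at 0.46 over the samples and at −0.29 after subtraction of the group means. The part of array detection in these values was not tested.

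**Figure D4:**
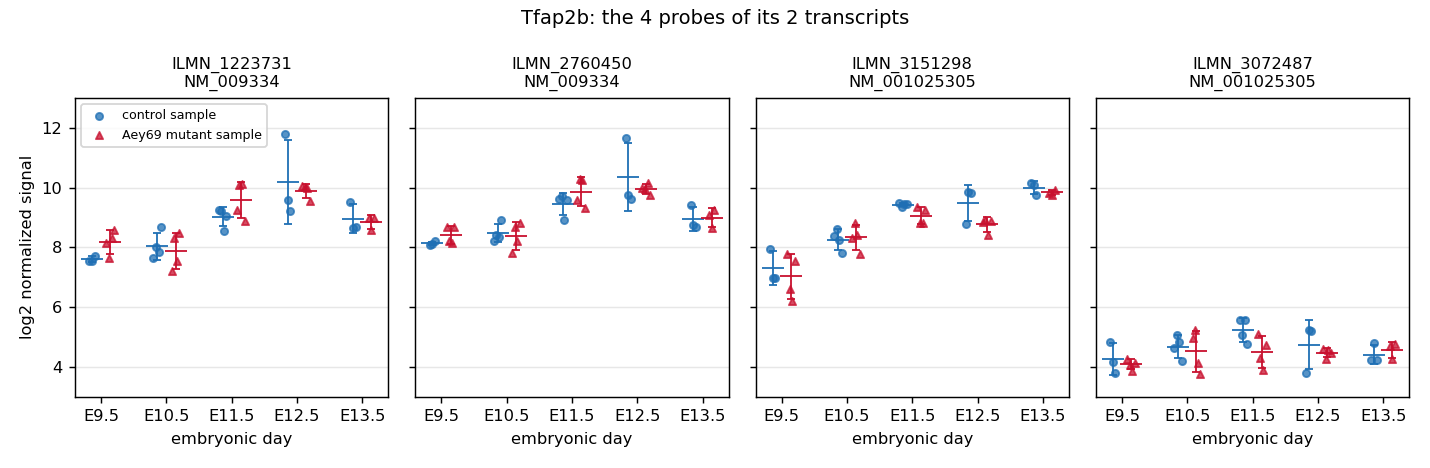
Log2 normalised signal of the 4 Tfap2b probes (vertical axis) at each embryonic day (horizontal axis), titled with probe and transcript, with circles for controls, triangles for mutants, and lines for the group mean and SD. The NM_009334 probes peak at E12.5, where 1 control sample reaches 11.65 for ILMN_2760450, and ILMN_3151298 is highest at E13.5.

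Counted over the stages, the genotype comparison called 1 of the 5 measured genes in 1 of the 5 stages. At E9.5 and E10.5, 0 of 5 genes were called, with 0% of all detected probes called higher and 0% lower at each stage. With the replicate block at E9.5, 1 probe of the array and 0 of the 5 genes were called. Among the probes of these genes, the lowest unadjusted limma p at E9.5 belonged to the Tfap2b probe ILMN_1223731 (0.022) and to Prrx1 ILMN_2678094 (0.028), both higher in mutants. At E11.5, 0 of 5 were called, against 0.0607% of probes called higher and 0.0152% lower, and Foxc1 (0.026) and the Tfap2b probe ILMN_3151298 (0.044), both lower in mutants, had an unadjusted p below 0.05. The share of all detected probes below that level is not given here for E9.5 and E11.5, so no result rests on the unadjusted p-values of those stages. At E12.5, 0 of 5 were called, against 0.0648% called higher and 0.425% lower. Foxc1, Twist1 and Prrx1, 3 of 5 genes, had an unadjusted p below 0.05 and were lower in mutants, against 6.31% of detected probes. Twist1 and Prrx1 had mutants below all controls, against 6.28% of detected probes. The median difference of the 5 genes was −0.65 at E12.5, against 0.04 over all detected named genes, and 0.05 at E13.5, against −0.05. Without control sample 2 of E12.5, 3 of 5 genes (Foxc1, Twist1 and Prrx1) were called lower, with 17.2% of detected probes called lower and 17% higher.

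**Figure D5:**
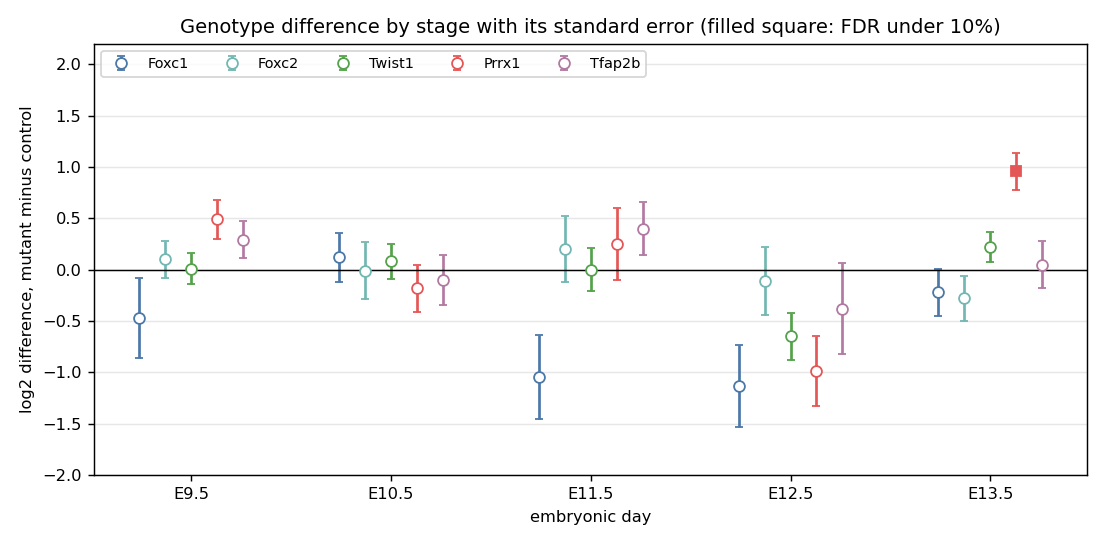
Log2 difference of mutants from controls with its standard error (vertical axis) for the brightest probe of the 5 detected genes at each embryonic day (horizontal axis), with a filled square for a call at an FDR of 10%. Foxc1, Twist1 and Prrx1 lie between −1.13 and −0.65 at E12.5 without a call, and Prrx1 at 0.96 in E13.5 is the only call.

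Between the heads of E10.5 and E11.5, where the tissue label stayed the same, Tfap2b rose in both genotypes and Foxc1 fell in the mutants. In controls Tfap2b ILMN_2760450 rose by 0.98 ± 0.26 (SE, limma adjusted p = 0.048) and ILMN_3151298 by 1.16 ± 0.21 (SE, adjusted p = 0.0037). It was 1 of 5 genes called higher, with 6.15% of detected probes called higher and 4.24% lower. In mutants they rose by 1.48 ± 0.26 (SE, adjusted p = 0.0021) and 0.73 ± 0.21 (SE, adjusted p = 0.034), with 14.3% of probes called higher and 11.8% lower. Foxc1 fell by 1.18 ± 0.37 (SE, adjusted p = 0.052) in mutants, and its difference in controls was −0.01 ± 0.37 (SE, adjusted p = 1). The difference of these steps was −1.17 ± 0.52 (SE, adjusted p = 0.91) and was not called, nor was that of any other of the 5 genes, against 0.0505% of probes called higher and 0.00721% lower. Foxc1's mutant step lost its call in 4 of 16 fits without 1 sample, those without mutant samples 2 or 4 of E10.5 or 3 or 4 of E11.5 (adjusted p from 0.13 to 0.15). The control step of Tfap2b ILMN_2760450 lost its call in 5 of 16, without control samples 2 or 4 of E10.5 or 2, 3 or 5 of E11.5 (0.89 to 0.94, adjusted p from 0.11 to 0.16).

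Across stages that also differed in tissue, some of the genes were higher in the E10.5 head and most in the E11.5 head than in the E9.5 embryo. From E9.5 to E10.5, 2 of 5 genes were called higher in each genotype, Twist1 (0.66) and Prrx1 (1.24) in controls, against 2.03% of detected probes, and Foxc1 (1.86) and Twist1 (0.74) in mutants, against 1.78%. From E9.5 to E11.5, 4 of 5 genes were called higher in controls, against 14.5% of detected probes, with log2 differences of 1.26 for Foxc1, 0.97 for Twist1, 1.6 for Prrx1 and 1.33 for Tfap2b and limma adjusted p between 0.00056 and 0.04. In mutants 3 of 5 were called higher, against 16.3%, with 0.95 for Twist1, 1.36 for Prrx1 and 1.44 for Tfap2b. Foxc1 differed by 0.68 there (adjusted p = 0.28).

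From the E11.5 head to the E12.5 eye region, Foxc1 was called lower in controls (−1.18, adjusted p = 0.099), 1 of 5 genes against 6.78% of detected probes, a call that was lost without control sample 2. In mutants Foxc1 (−1.25), Twist1 (−0.8) and Prrx1 (−1.08) were called lower, 3 of 5 against 4.38%, with adjusted p of 0.068, 0.0093 and 0.035. The genotype difference itself did not change by a called amount for any of the 5 genes, with 0.162% of detected probes called higher and 0.55% lower in that contrast. The smallest unadjusted p there was 0.0083, for Prrx1 at −1.25 (adjusted p = 0.41).

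From the E12.5 eye region to the E13.5 eye, Prrx1 (−1.11, adjusted p = 0.034) and Tfap2b ILMN_2760450 (−1.4, adjusted p = 0.007) were called lower in controls and 0 of 5 genes higher, against 10.4% and 12.6% of detected probes. Without control sample 2 neither was called. In mutants Foxc1 rose by 2.01 (limma adjusted p = 0.00068), Twist1 by 1.14 (adjusted p = 5.8e-05) and Prrx1 by 0.84 (adjusted p = 0.065), 3 of 5 genes against 19.8% of detected probes. Tfap2b ILMN_2760450 fell by 0.97 (adjusted p = 0.035), 1 of 5 against 21.7%. The Tfap2b probe ILMN_3151298 went the other way over this step. Its mean went from 8.76 to 9.84 in mutants, which was called higher, and from 9.49 to 9.99 in controls, which was not called. The controls and mutants of a stage enter several of these contrasts, which are therefore not independent of each other.

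The other genes of the tissue were counted in 4 lists. The 15 paralogs and partners measured included Twist2, the other AP-2 genes, and E-protein, Id and Hand genes, but not Prrx2. At E12.5, 13 of 15 were detected, and 1 was called lower in mutants, the AP-2 paralog Tfap2d (−1.48, limma adjusted p = 0.066). Of 20 detected other crest and mesenchyme factors, 1 was called lower, Osr2 (−1.59 ± 0.19, SE, adjusted p = 0.024), a zinc finger factor of craniofacial mesenchyme. Of 20 detected signalling genes of this tissue, 1 was called lower, the TGF-beta receptor gene Tgfbr2 (−1.43 ± 0.24, SE, adjusted p = 0.095). Of 16 detected matrix genes, 4 were called lower, the collagen genes Col6a1 (−1.89, adjusted p = 0.029), Col6a2 (−1.48, adjusted p = 0.044) and Col1a1 (−1.8, adjusted p = 0.049) and the proteoglycan gene Dcn (−2.8, adjusted p = 0.06). The list medians were −0.07, −0.09, −0.34 and −0.79, against 0.04 over all detected named genes, and 0 genes of these lists were called higher. Without control sample 2, 3, 2, 6 and 10 genes were called lower in the same order of lists and 0, 1, 0 and 1 higher. With 17.2% of all detected probes called lower in that fit, the counts of the first 2 lists, 3 of 13 and 2 of 20, were near or below the background.

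At E13.5 the same lists had few calls. The E-protein gene Tcf12, whose product pairs with Twist1, was called higher in mutant eyes (0.77 ± 0.1, SE, limma adjusted p = 0.031), 1 of 11 detected paralogs and partners. The Wnt effector gene Lef1 was called higher (1.43 ± 0.23, SE, adjusted p = 0.053), 1 of 21 signalling genes. These stand against 0.465% of all detected probes called higher. Of 21 other factors and 18 matrix genes 0 were called by limma, and 9 and 6 of them had an unadjusted p below 0.05 and were higher in mutants, against 11.6% of detected probes. The list medians were 0.13, 0.12, 0.16 and 0.18 (factors and matrix last), against −0.05 over all detected named genes. At E9.5, E10.5 and E11.5 limma called 0 genes of these 4 lists. Their smallest unadjusted limma p was 0.0025 at E9.5 (Ldb2, 1.14), 0.078 at E10.5 (Rarb, −0.25) and 0.013 at E11.5 (Tfap2a, −0.51).

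Some genes of these lists also had a genotype difference that rose from E12.5 to E13.5 by a called amount. They were 2 of 13 detected paralogs and partners, 2 of 21 other factors, 2 of 21 signalling genes and 7 of 18 matrix genes, against 1.32% of all detected probes. The rise was called for the matrix genes Dcn (3.01), Col1a1 (2.53), Col6a1 (2.24), Col6a2 (2), Col3a1 (1.73), Kera (1.08) and Col5a1 (1.03), with limma adjusted p from 1e-04 to 0.054. It also rose for the homeodomain gene Msx1 (2.55, adjusted p = 0.015), for Osr2 (1.69, adjusted p = 0.057), for Twist2 (1.44, adjusted p = 0.023), for Tfap2d (1.47, adjusted p = 0.079), for Lef1 (1.97, adjusted p = 0.0027) and for Tgfbr2 (1.64, adjusted p = 8e-04). It fell for the retinoic acid synthesis gene Aldh1a3 (−1.12, adjusted p = 0.062). The end points differed. Msx1 and Lef1 reached mutant-control differences of 1.99 and 1.43 at E13.5, whereas Tfap2d, Col5a1 and Osr2 came to −0.01, 0.04 and 0.1. The same genes were called without control sample 2 of E12.5, and the counts became 3, 4, 6 and 9 higher in the order of lists above, against 5.58% of probes called higher and 6.99% lower.

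Markers of other tissues also moved between the genotypes at these stages. The summed signal of the 18 matrix genes was 7357 to 10510 in E12.5 mutants and 16476 to 19446 in controls, and 31885 to 36746 in E13.5 mutants and 30045 to 33212 in controls. For 11 skeletal muscle genes it was 763 to 1485 against 1510 to 3551 at E12.5, and 5618 to 9286 against 3331 to 6666 at E13.5, where 9 of 11 were detected, 0 were called and the muscle regulator Myod1 was at 6.01 ± 0.24 against 5.36 ± 0.26 (SD, n = 3 each). For 9 endothelial genes it was 2717 to 2957 against 3261 to 3512 at E12.5, and 5187 to 5520 against 5036 to 5703 at E13.5. For 12 lens fiber genes it was 407 to 431 against 3456 to 7108, and 332 to 360 against 95282 to 126215, with 8 of 10 detected genes called lower at E12.5 and 11 of 12 at E13.5. Prrx1, the muscle sum, the matrix sum and the endothelial sum were thus all lower in mutants than in every control at E12.5, and at E13.5 these 3 sums overlapped between the genotypes. Also lower in every E12.5 mutant were the sums of 9 surface ectoderm genes (1748 to 2003 against 2446 to 3883), 7 cartilage genes (1140 to 1477 against 1526 to 1694) and 7 yolk sac genes (1109 to 2042 against 2253 to 3833). The erythroid sums overlapped at E12.5 (7542 to 19123 against 6950 to 73351), with control sample 2 lowest. At E13.5, where Prrx1 was higher in every mutant, the sum of 7 erythroid genes was higher too (52098 to 72920 against 48122 to 50828), as was that of 6 macrophage genes (499 to 575 against 269 to 477). So were the sums of 22 other crest and mesenchyme factors (15777 to 16052 against 12673 to 14414) and 15 paralogs and partners (14424 to 15750 against 13452 to 13925). The sum of the signalling genes overlapped at E13.5, and at E12.5 the sums of these 3 lists overlapped. The sums of 9 pigment genes (2237 to 2469 against 3089 to 4803) and 9 optic cup genes (2077 to 2376 against 2567 to 3015) were lower in every E13.5 mutant. The part of a different makeup of the dissected tissue in the Prrx1 differences was not tested.

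Likeness over the 36 samples was measured by Pearson correlation among 10673 named genes. The genes most like Foxc1 were Dock1 (0.914), Add3 (0.903) and Tmem255a (0.893). Those most like Twist1 were Angptl4 (0.872), Nkd2 (0.871) and S1pr3 (0.865), and those most like Prrx1 were Foxp1 (0.849), Mertk (0.832) and Frmd6 (0.792). Foxc2 reached lower values, with Cnn2 (0.785), Itga9 (0.783) and Tpm2 (0.776). Tfap2b, by its probe ILMN_2760450, reached the highest, with Mdga2 (0.944), Gria1 (0.94) and Prkacb (0.936), of which Mdga2 and Gria1 are best known from neurons. The Tfap2b probe ILMN_3151298 correlated with ILMN_2760450 at only 0.46, so this likeness is that of 1 probe. Among the 6 genes themselves, Twist1 and Prrx1 correlated at 0.63 over the samples and 0.28 after subtraction of the group means, and Foxc1 and Twist1 at 0.6 and 0.25, so that most of their likeness lay in the stages and groups. The samples share stage, tissue and array detection, and no test was made on these correlations.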

How the data were processed

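RNA of Aey69 mutant and control embryos was hybridised to Illumina MouseRef-8 v2.0 arrays. The authors deposited background-subtracted probe intensity values from GenomeStudio, between −21 and 28964, with a detection p-value per probe and array deposited beside each. The deposited table of the authors' processed signal was used as an alternative, and 94.21% of the group means made here lay within 1 unit or 3% of it. An offset of 22 was added, the 36 arrays were quantile normalised together and log2 was taken. Genotypes were compared at each stage with limma 3.58.1 in R 4.3.3 (lmFit and eBayes), with Benjamini-Hochberg adjustment over all 25697 probes, and stages in a model of 10 groups or of the 4 head groups. A probe had to be detected in 2 or more of 3 samples, or 3 or more of 4, of one of the groups compared, as in the study's methods. The number of arrays limits the precision. No arrays were duplicates. Named genes were all 6 genes, in each list those called or with the smallest p (up to 4), and for each detected gene the 3 most correlated genes. The genes and lists were chosen with earlier results of these data known. Samples carry the number of their data column. The replicate numbers of the titles paired the samples at E9.5 (correlation of deviations 0.5, 0.57 and 0.11) and at E10.5 (0.55, 0.65, 0.06 and 0.8). By their brightest probes, the block changed no call of the 6 genes at these stages. The labels give no reason for the pairing. The study calls the controls littermates of the mutants without linking replicate numbers to litters. The pipeline was tested on simulated data. Alternatives were scaling to the median, an offset of 100, no detection filter, other models, the excluded arrays, and each sample left out. Array probes were named through GEO's platform annotation, and promoters were matched by symbol to RefSeq (GRCm38.p6) for 5 of 6 genes. An item of the genotype description is not reported here.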

Additional observations from a re-analysis of the deposited data

Results flagged for a closer look

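In the 60 groups of 4 samples looked at (6 groups for each of 10 probes, leaving out the second probe of NM_175686 and of NM_001025305), a sample lay far from the others of its group 6 times. Chance alone flags about 1 in 20 such groups. Foxc2 was at 6.64 in mutant sample 2 of E9.5, against 7.13 to 7.19 in the other 3 mutants. Twist1 was at 10.33 in control sample 5 of E10.5, against 9.92 to 9.96, and at 9.98 in control sample 5 of E11.5, where the nearest other control was at 10.42. Tfap2b ILMN_2760450 was at 8.91 in control sample 4 of E11.5, against 9.59 to 9.72. At E12.5, Tfap2b ILMN_3151298 was at 8.41 in mutant sample 4, against 8.86 to 8.92, and ILMN_1223731 at 9.55 in mutant sample 5, against 10 to 10.04. Groups of 3, among them the E12.5 controls, were not looked at in this way.

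The genotype difference of Prrx1 differed between E12.5 and E13.5 by 1.96 on the log2 scale for ILMN_2678094 and by 2.5 for ILMN_2614463 (limma adjusted p = 0.035 and 0.0034). The 4 mutants of E12.5 lay below all 3 controls and the 3 mutants of E13.5 above all 3 controls for both probes.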

How the results depend on the processing

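Scaling to the array median in place of quantile normalisation shifted the median difference of all detected probes from 0.01 to −0.33 at E9.5 and to −0.1 at E11.5 and −0.14 at E13.5. Counted by the brightest probes, it left 0 of the 6 genes called at E13.5 (Prrx1 ILMN_2678094 0.78, limma adjusted p = 0.1), while Prrx1 ILMN_2614463 kept its call. The scaling also reversed small uncalled differences at E9.5 (Foxc2 −0.29, Twist1 −0.46, Tfap2b ILMN_2760450 −0.14, Prrx1 ILMN_3057018 0), E10.5 (Foxc2 0.06), E11.5 (Foxc2 0, Prrx1 ILMN_2614463 −0.1) and E13.5 (Tfap2b ILMN_2760450 −0.13), the head steps (Twist1 −0.1 in mutants, Foxc2 −0.06 for the genotype difference) and the change from E10.5 to E11.5 (Prrx1 ILMN_2614463 −0.03). It called 1, 45 and 374 probes at E9.5, E12.5 and E13.5 in place of 0, 68 and 232, and 4 in place of 2 for the genotype difference from E9.5 to E10.5. Member genes called between stages were then 0 in place of 1 (mutants E10.5 to E13.5), 1 in place of 3 (mutants E11.5 to E12.5), 1 in place of 2 (controls E9.5 to E10.5), 1 in place of 0 (controls E10.5 to E13.5), 0 in place of 1 (controls E11.5 to E12.5) and 1 in place of 2 (controls E11.5 to E13.5), and signalling genes 0 at E12.5 and 2 at E13.5 in place of 1 each. With an offset of 100, 3 probes were called at E11.5 (10 before), 288 at E12.5 (68) and 923 at E13.5 (232), 5 for the head steps (8), 1, 2, 167 and 649 for the genotype differences of neighbouring stages (2, 1, 101 and 391), 1 member gene from E9.5 to E10.5 in controls (2), and Foxc1's head step in controls was 0.02. In 1 model of 10 groups, 9, 1, 4, 522 and 143 probes were called from E9.5 to E13.5, 1 for the head steps, and 0 of the 6 genes at E13.5 by the brightest probes (ILMN_2678094 0.96, adjusted p = 0.47). In that model ILMN_2614463 kept its call at E13.5 and was also called at E12.5, at −1.13 (adjusted p = 0.091). Leaving undetected probes out before the fit or a trend in eBayes gave 1197 and 1058 probes at E13.5. With the excluded arrays, 6 and 10 probes were called at E12.5 and E13.5 and 0 of the 6 genes (ILMN_2614463 1.45, ILMN_2678094 0.44), and reversed uncalled differences were 0.27 (Foxc1), −0.3 (Foxc2), −0.02 (Prrx1 ILMN_3057018) and 0.12 (Tfap2b ILMN_3151298) at E9.5 and 0.35 (Foxc1) and 0.6 (ILMN_3151298) at E13.5. Fits of the compared groups alone called 1 member gene from E9.5 to E10.5 and 2 from E11.5 to E13.5 in mutants, and 5 from E9.5 to E13.5, 1 from E10.5 to E13.5, 0 for E11.5 to E12.5 and for E12.5 to E13.5 in controls, and 0 and 8 probes for the genotype differences from E9.5 to E10.5 and E10.5 to E11.5. The causes were not tested.

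Title numbers are shared between groups. Same-numbered samples deviated together at E9.5 (r = 0.5, 0.57 and 0.11) and in 3 of 4 pairs at E10.5 (0.55, 0.65, 0.8 and 0.06), and each of these 7 correlated best with its own number. At E11.5 the pairs were mixed (0.34, 0.61, −0.57 and −0.12), and only the pair at 0.61 correlated best with its own number. At E12.5 and E13.5 no pair did (r from −0.55 to 0.01, all 3 below 0 at E13.5), and there they share only a number. The replicate block, fitted on the authors' processed values, called 1, 2, 2, 4 and 42 probes from E9.5 to E13.5, 0 for the head steps and 0 of the 6 genes at E13.5 (ILMN_2678094 0.97, adjusted p = 0.14, ILMN_2614463 1.38, adjusted p = 0.11).

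With each sample left out in turn, 0 to 67 probes were called at E9.5, 2 to 9 at E11.5, 12 to 4793 at E12.5 and 46 to 1838 at E13.5, and 0 to 3 and 0 to 1 of the 6 genes at E12.5 and E13.5. The 4793 came without control sample 2 of E12.5. For the genotype difference from E12.5 to E13.5 the ranges were 208 to 1889 probes and 0 to 2 genes. For the head steps they were 758 to 1444 probes and 0 to 1 genes in controls, 2103 to 4053 and 1 to 3 in mutants, and 0 to 12 probes for their difference. Without control sample 2 of E12.5, a setting chosen after seeing the data like those of the E12.5 to E13.5 change, controls had 1 member gene called for E10.5 to E12.5, and 0 for E11.5 to E12.5 and for the last step. Differences whose sign or call changed with a sample left out ranged as follows. At E9.5 Foxc1 ranged from −0.82 to 0.09, Twist1 from −0.03 to 0.06 and Tfap2b ILMN_3151298 from −0.52 to 0.06. At E10.5 the ranges were −0.06 to 0.25 for Foxc1, −0.2 to 0.22 for Foxc2, −0.32 to 0.02 for Prrx1 ILMN_2614463, −0.08 to 0.19 for Prrx1 ILMN_3057018, and −0.35 to 0.07, −0.24 to 0.09 and −0.1 to 0.25 for Tfap2b ILMN_1223731, ILMN_2760450 and ILMN_3151298. At E11.5 they were −0.07 to 0.41 for Foxc2, −0.16 to 0.12 for Twist1, and −0.26 to 0.41 and −0.05 to 0.57 for Prrx1 ILMN_2614463 and ILMN_2678094. At E12.5 they were −0.37 to 0.26 for Foxc2, and −0.79 to 0.51 and −0.74 to 0.27 for Tfap2b ILMN_1223731 and ILMN_2760450. At E13.5 the same Tfap2b probes had −0.26 to 0.16 and −0.09 to 0.29, and Prrx1 had 1.12 to 1.51 (ILMN_2614463) and 0.79 to 1.11 (ILMN_2678094). For the head steps the ranges were −0.34 to 0.43 for Foxc1 in controls, −0.35 to 0.13 for Foxc2 in mutants, and −0.06 to 0.42 and −0.25 to 0.04 for the genotype differences of Foxc2 and Twist1. The change of the Prrx1 ILMN_2678094 genotype difference between the last stages ranged from 1.48 to 2.21.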

Other observations

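The 4 arrays left out were read in a normalisation of all 40 arrays. The E13.5 control set aside for quality (sample 3) had Foxc1 at 4.03 and Twist1 at 5.5, both not detected, where the kept controls had 8.58 ± 0.42 and 10.44 ± 0.25 (SD, n = 3), and Foxc2 at 9.63, where they had 7.35 ± 0.16 (SD, n = 3). The E9.5 control set aside for quality (sample 4) had Foxc1 at 4.42, Twist1 at 6.92 and Foxc2 at 8.47, where the kept controls had 7.39 ± 0.99, 9.33 ± 0.07 and 6.86 ± 0.14 (SD, n = 3). In both arrays Foxc1 and Twist1 lay below, and Foxc2 above, all kept controls of their group.

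The E13.5 mutant set aside for its markers (sample 3) had Prrx1 ILMN_2614463 at 6.17, where the kept mutants had 8.15 ± 0.44 (SD, n = 3), and Foxc1 at 6.12, where they had 8.36 ± 0.32 (SD, n = 3), with Twist1 at 10.68 against 10.66 ± 0.1 (SD, n = 3). Its Prrx1 also lay below the kept E13.5 controls, which were at 6.65 to 6.85 for ILMN_2614463. For ILMN_2678094 it was at 6.9, against 7.12 to 7.4 in these controls. The E12.5 control set aside for its markers (sample 4) had Foxc1 at 8.97, above the 3 kept controls, which lay between 6.55 and 8.02, and Prrx1 at 8.13 for ILMN_2614463, within their range of 7.49 to 8.52.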
